A study of Homo sapiens with 26 samples.

Results

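Interferon response genes are the genes that a cell switches on when interferon binds its surface receptors. The set described here holds 39 listed genes of known function: transcription factors, sensors of viral RNA and DNA, antiviral effectors and genes of unknown or mixed function. A gene was represented by the probe set that names it alone and had the highest mean signal, and 38 of the 39 had such a probe set. All 38 passed the filter on low values, against 15124 genes in all that did. The gene not represented, STAT2, a transcription factor of the type I interferon response, is not analysed here. The genes were measured in 786-O, a human clear cell renal carcinoma line widely used because it lacks a working VHL tumour suppressor and so keeps hypoxia-inducible factor 2a (HIF-2a) active. Total RNA was read on 26 Affymetrix U133 Plus 2.0 arrays.

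The groups, with 3 arrays each, were cells labelled WT8, cells labelled PRC3, cells given one of the HIF-2a inhibitor compounds 40, 41, 76 and 77, cells given the vehicle DMSO, and untreated cells labelled Blk. Single arrays labelled pTR and pTV completed the series. The labels do not say what WT8, PRC3, pTR and pTV are. WT8 and PRC3 are names in wide use for 786-O sublines that carry a wild-type VHL transgene (WT8) or the empty vector (PRC3), each usually grown from a selected clone. The labels give neither doses nor treatment times, and do not say if replicate arrays stand for separate cultures. The p-values therefore rest on the spread between arrays, which may be technical. In bulk RNA, fewer cells with a transcript and less of it per cell cannot be told apart.

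In vertebrate cells, type I interferons bind the receptor pair IFNAR1 and IFNAR2, and the kinases JAK1 and TYK2 then activate STAT proteins. A complex that includes IRF9 moves to the nucleus and binds the interferon-stimulated response element, or ISRE, in the promoters of target genes. The targets include enzymes that detect or degrade viral RNA, proteins that block entry or translation, and regulators that dampen the response. Many tumour cells keep part of this gene set expressed without added interferon, and some members also respond to IRF1, IRF3 or IRF7 directly.

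The ISRE core, searched on both strands as GAAA, any 2 bases and GAAA again, lay within the 250 bases before the start of 17 of the 31 members found in the RefSeq promoter table (GRCh38.p14), or 54.8%. It lay in 839 of 27305 promoters of the whole table, or 3.07%. The core was present in 8 of 16 members that were called higher in WT8 than in PRC3 and in 9 of 14 that were tested and not called. The windows below belong to those 8 called members. They are shown because they carry the textbook element of this response, with the matched core in capitals, read 5′ to 3′ along the strand of the gene. A match is a description of the letters, not a shown binding site. Cores written with TTTC are the same element on the other strand. For genes with several matches 1 is shown.
OAS3: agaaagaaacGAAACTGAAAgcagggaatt
IFIT1: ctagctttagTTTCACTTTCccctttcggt
IFIT3: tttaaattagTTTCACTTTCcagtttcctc
HERC5: aaacattatgTTTCGTTTTCcactggagct
IFITM1: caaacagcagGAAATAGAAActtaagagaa
IFI44L: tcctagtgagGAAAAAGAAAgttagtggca
IFI44: gcacactgagTTTCAGTTTCctttctct
SAMD9: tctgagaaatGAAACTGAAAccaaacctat
The windows lie at chr12:112938321-112938350 (OAS3), chr10:89392497-89392526 (IFIT1), chr10:89327865-89327894 (IFIT3), chr4:88457035-88457064 (HERC5), chr11:313990-314019 (IFITM1), chr1:78620365-78620394 (IFI44L) and chr1:78649761-78649788 (IFI44) on the plus strand, and at chr7:93118096-93118125 (SAMD9) on the minus strand. The core began 143 bases before the gene's start in OAS3, 116 in IFIT1, 122 in IFIT3, 74 in HERC5, 40 in IFITM1, 73 in IFI44L, 18 in IFI44 and 136 in SAMD9. IFI44L holds the printed 30 bases at both of its matches, the other at chr1:78620274-78620303. The element of interferon gamma signalling, searched as TTCNNNGAA, lay in 8 of the 31 member promoters (25.8%) and in 6.78% of all. The core can overlap that element.

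The mean log2 signal over the 38 members was the simplest view of the set. It was 8.16, 8.40 and 7.55 on the WT8 arrays, the highest group, and 6.91, 7.25 and 6.63 on the PRC3 arrays. It was 6.72, 6.87 and 6.87 with compound 40, 7.11, 7.39 and 7.68 with compound 41, 7.03, 7.22 and 7.27 with compound 76, and 7.02, 7.23 and 7.14 with compound 77. The DMSO arrays gave 6.92, 7.46 and 7.39 and the untreated arrays 7.10, 7.71 and 7.63. The group means ran from 6.82 ± 0.083 in compound 40 through 6.93 ± 0.31 in PRC3, 7.13 ± 0.11 in compound 77, 7.17 ± 0.13 in compound 76, 7.26 ± 0.29 in DMSO, 7.40 ± 0.29 in compound 41 and 7.48 ± 0.33 in Blk to 8.04 ± 0.44 in WT8 (SD, n = 3). Neighbours in that order up to Blk differed by less than the larger of their SDs, and WT8 replicate 3 lay within the range of the Blk arrays. Of the 38 members, 27 had their highest group mean in WT8. The lowest mean lay in compound 40 for 15 members and in PRC3 for 11. Replicate 1 had the lowest member mean in all 6 of the untreated, DMSO and compound groups, and replicate 3 had it in both WT8 and PRC3.

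**Figure D1:**
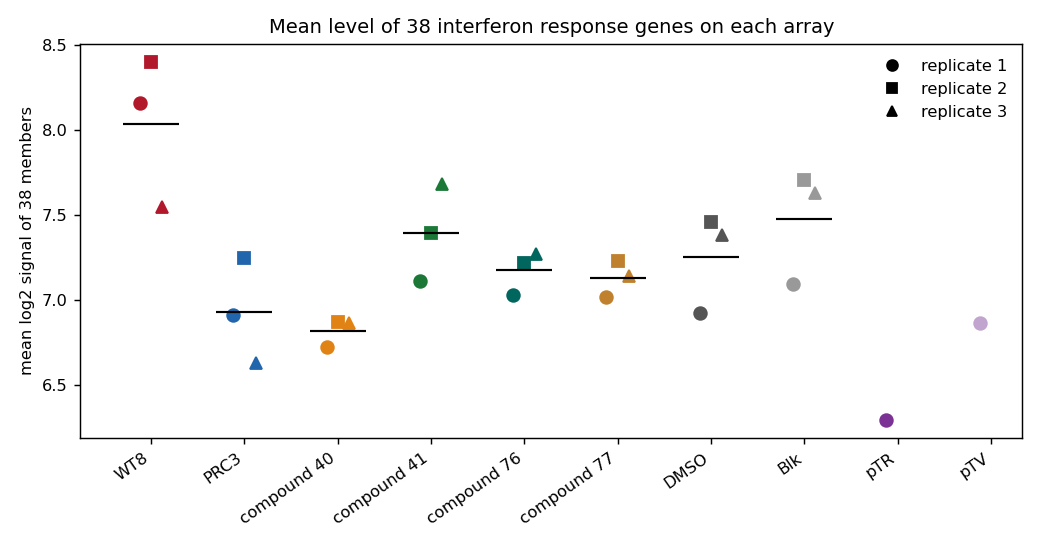
Mean log2 signal of the 38 members on each array, by group, with the group mean as a line (n = 3, single arrays for pTR and pTV). Marker shapes give the replicate number. The WT8 arrays lie at 7.55 to 8.40 and the PRC3 arrays at 6.63 to 7.25.

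Signals below 20 were set to 20, called the floor here, so a fold is only a lower bound where 1 group had all its arrays at 20. The floor also affects a fold where some arrays of a group were at 20, as in PRC3 for IFI44L. Probe sets were called at an adjusted p below 0.05 (limma, Benjamini-Hochberg adjustment over 35013 probe sets). WT8 replicate 3 stood apart in the control probe sets for RNA integrity, where the 3' to 5' signal ratio of ACTB was 2.37 there and no more than 1.39 on any of the other 25 arrays, and that of GAPDH 1.32 there and no more than 1.06 elsewhere. The part of this difference in the results was not tested, and the count for WT8 against PRC3 is given with and without that array. Replicates 2 and 3 of compound 40 had been scaled by the authors unlike the other 24 arrays. Of the 6 renal and epithelial markers, 5 lay at 524 or more on all 26 arrays, among them PAX8 at 761 to 1329 and VIM at 7208 to 8708. The other, PAX2, was 22.1 in pTR and 74.0 to 177 on the other arrays. Of the 8 leukocyte markers measured, PTPRC and CD14 were at the floor on all 26 arrays, and the other 6 reached at most 68.9 (CD2). Of the 3 endothelial markers VWF was at the floor on all arrays, CDH5 reached 22.5 and PECAM1 lay at 45.5 to 117. The summed leukocyte signal was 168 to 223 in WT8 and 183 to 218 in PRC3, and the summed endothelial signal 100.2 to 118 in WT8 and 103 to 120.2 in PRC3. VEGFA, a HIF-2a target, averaged 251 ± 67.8 in WT8 and 1619 ± 665 in PRC3 (SD, n = 3, adjusted p = 3.63e-06), and CCND1 97.4 ± 5.26 in WT8 and 925 ± 40.6 in PRC3 (adjusted p = 2.54e-10).

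WT8 cells had higher signals than PRC3 cells for most of the set. limma called 22 of the 38 members (57.9%) higher in WT8 and 0 lower, where 2.35% of all probe sets were called higher and 2.21% lower. The median change was 1.10 on the log2 scale over the members and 0.01 over all genes, and 35 members had a positive change. In 23 members every WT8 array lay above every PRC3 array, as in 8.18% of all probe sets, and in 0 members the reverse held, as in 7.65%. Without WT8 replicate 3 the count was 25, with a median of 1.198. Leaving out WT8 replicate 2, the array with the highest member mean, gave 10, and leaving out PRC3 replicate 3 gave 13. It was 11 with median scaling in place of quantile normalization, 13 with no filter on low values and 1 (CMPK2) when these groups were fitted without the other arrays. Same-numbered arrays of WT8 and PRC3 deviated together. A fit that blocks on the replicate number, with each number's effect shared by all 8 groups, called 26. These were the 22 plus IFIH1, ISG15, HERC6 and IFI6. That block does not pair WT8 with PRC3 alone, and the share of all probe sets called with it was not counted. The fibroblast marker LUM moved with the group, at 95.4 ± 15.6 in WT8 and 33.4 ± 8.72 in PRC3 (SD, n = 3, adjusted p = 6.57e-04). The summed signal of the 4 fibroblast markers was 250 to 283 in WT8 and 170 to 200 in PRC3, and its part in the result was not tested. Of the 4, 0 were at the floor on every array, but PDGFRA was there on 23 of the 26 arrays. DCN reached at most 45.65 on any array, and COL1A1 lay at 94.7 to 134 in WT8 and 96.3 to 103 in PRC3.

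**Figure D2:**
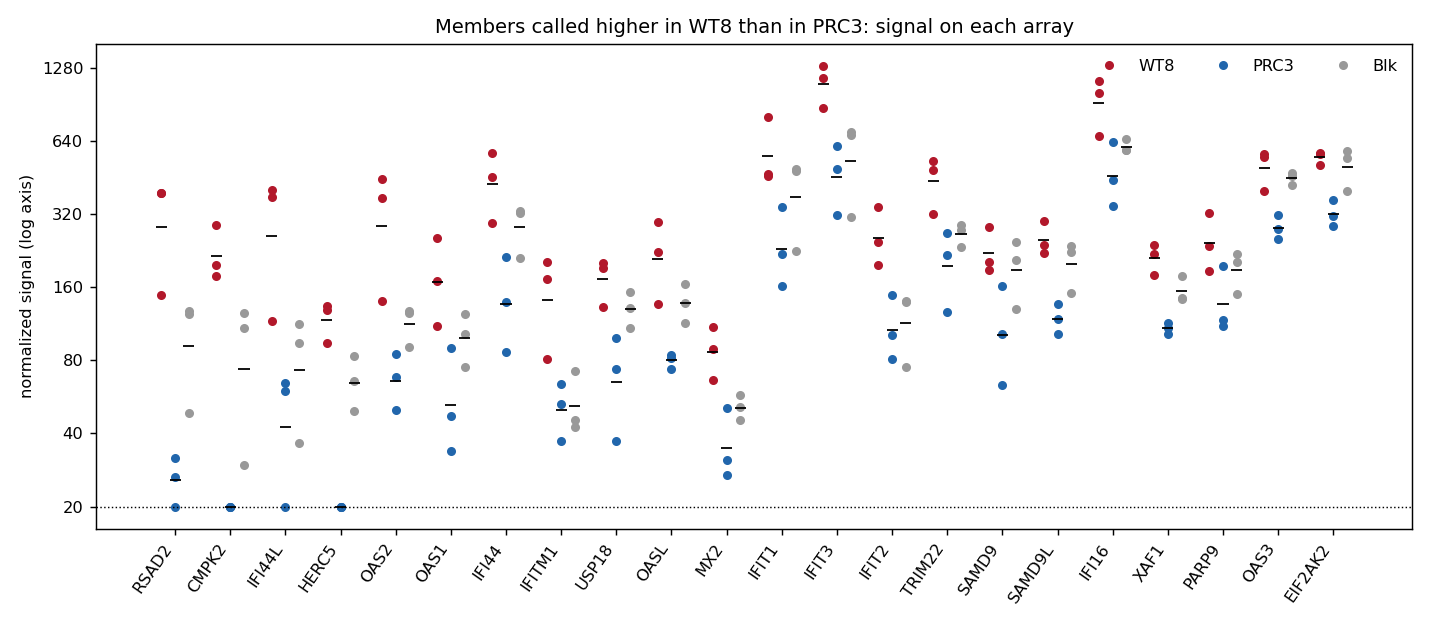
Normalized signal on a log axis of the 22 members called higher in WT8 than in PRC3, on each array of WT8, PRC3 and untreated Blk cells, with the group geometric mean as a line and the floor of 20 dotted. HERC5 and CMPK2 lie at the floor on all 3 PRC3 arrays. PARP9 is the member in which a WT8 array (186) lies below a PRC3 array (195).

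Of the enzymes of nucleotide and RNA metabolism, 2 of 3 were called higher. RSAD2 encodes viperin, which makes a chain-terminating nucleotide that blocks viral polymerases. Its signal was 390, 389 and 149 in WT8, against 26.6, 31.7 and 20 in PRC3, with Blk at 48.4, 128 and 124. It was 11.03-fold higher in WT8 than in PRC3 (log2 3.46, SE 0.58, adjusted p = 5.41e-04), with no overlap. CMPK2, a nucleotide kinase encoded next to RSAD2, gave 178, 287 and 196 in WT8 and 20 on every PRC3 array, with Blk at 29.6, 125 and 109. It was at least 10.8-fold higher in WT8 (SE 0.46, adjusted p = 3.60e-05). ISG20, an exonuclease for viral RNA, averaged 57.2 ± 27.4 in WT8 and 33.7 ± 7.14 in PRC3 (SD, n = 3) and was not called.

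All 4 oligoadenylate synthetase genes were called higher. The products of OAS1, OAS2 and OAS3 sense double-stranded RNA and make the second messenger that activates a ribonuclease, and OASL is a related protein without that activity. OAS2 was 374, 444 and 140 in WT8, against 68.4, 84.7 and 49.7 in PRC3 and 91.1, 125 and 127 in Blk, and 4.32-fold higher in WT8 than in PRC3 (log2 2.11, SE 0.32, adjusted p = 1.99e-04). OAS1 was 169, 254 and 111 in WT8, against 33.9, 90.1 and 47.2 in PRC3 and 75.3, 124 and 103 in Blk (3.21-fold, SE 0.37, adjusted p = 0.00730). In both genes the lowest WT8 array, replicate 3, lay above the highest PRC3 array. OASL was 223, 296 and 137 in WT8, against 73.9, 84.0 and 82.1 in PRC3 and 114, 164 and 138 in Blk (2.61-fold, SE 0.27, adjusted p = 0.00279). OAS3 was 563, 547 and 397 in WT8, against 278, 316 and 252 in PRC3 and 471, 422 and 457 in Blk (1.77-fold, SE 0.18, adjusted p = 0.00785). The weaker probe set of OAS3 changed by 0.16 (adjusted p = 0.953). The calls of OAS1 and OAS3 ended without WT8 replicate 2, and that of OAS1 also without PRC3 replicate 1; the log2 changes with 1 array left out were 1.37 to 2.07 for OAS1 and 0.73 to 0.98 for OAS3.

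Of the IFIT family, whose proteins bind viral RNA and block its translation, 3 of 4 were called higher. IFIT1 was 468, 805 and 457 in WT8, against 219, 342 and 161 in PRC3 and 225, 481 and 490 in Blk (2.43-fold, SE 0.33, adjusted p = 0.0228). IFIT3, a partner of IFIT1, was 872, 1300 and 1163 in WT8, against 316, 609 and 492 in PRC3 and 310, 677 and 698 in Blk (2.41-fold, SE 0.34, adjusted p = 0.0313). IFIT2 was 245, 342 and 197 in WT8, against 102, 148 and 81.1 in PRC3 and 75.3, 139 and 141 in Blk (2.38-fold, SE 0.37, adjusted p = 0.0495). In these 3 genes the WT8 and PRC3 arrays did not overlap. All 3 calls ended without WT8 replicate 2 or PRC3 replicates 1 or 3, that of IFIT2 also without WT8 replicate 1 and that of IFIT3 without WT8 replicate 3. The log2 change with 1 array left out was 1.01 to 1.57 for IFIT1, 1.04 to 1.49 for IFIT2 and 1.00 to 1.48 for IFIT3. IFIT5, which lay at 104 to 242 over all 26 arrays, was not called (log2 0.56, adjusted p = 0.235).

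The ISG15 system attaches the small protein ISG15 to other proteins. HERC5, the main human ligase for it, was 94.0, 134 and 129 in WT8 and 20 on every PRC3 array, with Blk at 49.7, 83.4 and 65.6. It was at least 5.88-fold higher in WT8 (SE 0.29, adjusted p = 4.46e-06). USP18 removes ISG15 and dampens receptor signalling, and was 192, 202 and 132 in WT8, against 73.9, 98.7 and 37.3 in PRC3 and 109, 153 and 132 in Blk (2.66-fold, SE 0.28, adjusted p = 0.00308). The WT8 and PRC3 arrays of both genes stood apart. ISG15 itself was 1658, 2430 and 778 in WT8, against 431, 992 and 557 in PRC3 and 661, 1313 and 1433 in Blk. Its WT8 replicate 3 lay below PRC3 replicate 2, and the log2 change of 1.24 was not called (SE 0.40, adjusted p = 0.0796), but was called with the replicate block (adjusted p = 0.00799). HERC6, a paralog of HERC5, averaged 108 ± 17.3 in WT8 and 57.9 ± 10.3 in PRC3 (SD, n = 3) and was called with the block alone (adjusted p = 0.0798 without it and 0.0442 with it).

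Of the MX GTPases, which trap viral nucleocapsids, 1 of 2 was called higher. MX2 was 66.4, 88.7 and 110 in WT8, against 31.0, 51.1 and 27.0 in PRC3 and 51.2, 45.4 and 57.3 in Blk (2.47-fold, SE 0.34, adjusted p = 0.0262). That call ended without WT8 replicates 2 or 3 or PRC3 replicates 1 or 3, with log2 changes of 1.12 to 1.58. MX1 was 35.4, 62.9 and 20 in WT8, against 20, 58.7 and 32.9 in PRC3, and the groups overlapped (log2 0.068, SE 0.41, adjusted p = 0.981). The Blk arrays of MX1 were higher than all 6, at 93.1, 118 and 106.

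Of the IFITM genes, whose membrane proteins hinder virus entry, IFITM1 was called higher, at 173, 203 and 80.9 in WT8, against 64.2, 52.7 and 37.1 in PRC3 and 45.6, 42.4 and 72.1 in Blk (2.83-fold, SE 0.41, adjusted p = 0.0314). Its call ended without WT8 replicates 1 or 2 or PRC3 replicates 2 or 3, with log2 changes of 1.24 to 1.91. IFITM2 averaged 782 ± 226 in WT8 and 517 ± 141 in PRC3, and IFITM3 1958 ± 1098 in WT8 and 877 ± 276 in PRC3 (SD, n = 3), and neither was called (adjusted p = 0.105 and 0.0766). The probe sets of IFITM2 and IFITM3 can read each other, since these paralogs are nearly identical. BST2, or tetherin, which holds budding virus at the cell surface, was not called either (log2 0.43, adjusted p = 0.290).

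IFI44L and IFI44 are neighbouring genes whose products are not well understood. IFI44L was 402, 374 and 116 in WT8, against 59.7, 64.6 and 20 in PRC3 and 36.5, 113 and 93.9 in Blk (6.09-fold, SE 0.50, adjusted p = 0.00199). IFI44 was 456, 573 and 293 in WT8, against 139, 212 and 86.8 in PRC3 and 212, 322 and 328 in Blk (3.10-fold, SE 0.27, adjusted p = 4.50e-04). The WT8 and PRC3 arrays of both genes did not overlap, and both calls held with each array left out in turn. IFI6, a mitochondrial and ER membrane protein, had a log2 change of 1.18 that was called with the block (adjusted p = 0.0346) and not without it (adjusted p = 0.269). IFI35 was not called (log2 0.046, adjusted p = 0.979). IFI27, another mitochondrial protein, was 1057, 662 and 199 in WT8, against 685, 830 and 435 in PRC3, and was not called (log2 -0.28, adjusted p = 0.877). All 3 PRC3 arrays of IFI27 and the first pair of WT8 arrays exceeded every array of the other groups, which lay at or below 231.

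Among the sensors, EIF2AK2, which encodes the RNA-activated kinase PKR, was 566, 570 and 510 in WT8, against 314, 366 and 284 in PRC3 and 398, 543 and 580 in Blk (1.71-fold, SE 0.14, adjusted p = 0.00125). IFI16, a sensor of foreign DNA, was 1126, 1010 and 667 in WT8, against 633, 443 and 344 in PRC3 and 584, 586 and 650 in Blk (1.99-fold, SE 0.27, adjusted p = 0.0292). Neither gene's WT8 and PRC3 arrays overlapped. The call of IFI16 ended without WT8 replicates 1 or 2 or PRC3 replicates 2 or 3, with log2 changes of 0.59 to 1.23. IFIH1, the RNA sensor MDA5, was 117, 157 and 80.9 in WT8 and 47.3, 55.9 and 54.5 in PRC3, and was called with the block (adjusted p = 0.0244) and not without it (log2 1.13, adjusted p = 0.0518).

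None of the 3 transcription factors was called. IRF1 was 242, 188 and 223 in WT8, against 231, 176 and 242 in PRC3 (log2 0.015, adjusted p = 1, with a 95% interval of -0.35 to 0.38). IRF9 was 179, 215 and 64.9 in WT8, against 206, 179 and 114 in PRC3 (log2 -0.25, SE 0.31, adjusted p = 0.802), with replicate 3 lowest in both. IRF7 averaged 41.1 ± 9.83 in WT8 and 46.0 ± 10.3 in PRC3 (SD, n = 3, adjusted p = 0.897). Missing the threshold does not show that the levels were alike.

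Of the other 6 effectors, 5 were called higher. TRIM22, an antiviral ubiquitin ligase, was 486, 530 and 321 in WT8, against 218, 268 and 126 in PRC3 and 289, 234 and 275 in Blk (2.24-fold, SE 0.27, adjusted p = 0.0106). SAMD9 and SAMD9L are neighbouring genes that restrict poxviruses. SAMD9 was 188, 282 and 203 in WT8, against 103, 162 and 63.0 in PRC3 and 130, 246 and 206 in Blk (2.17-fold, SE 0.31, adjusted p = 0.0360). SAMD9L was 220, 300 and 238 in WT8, against 103, 136 and 118 in PRC3 and 151, 236 and 224 in Blk (2.12-fold, SE 0.27, adjusted p = 0.0175). XAF1, a pro-apoptotic protein, was 180, 238 and 220 in WT8, against 103, 109 and 114 in PRC3 and 143, 178 and 145 in Blk (1.95-fold, SE 0.21, adjusted p = 0.00645). PARP9 was 236, 324 and 186 in WT8, against 110, 195 and 117 in PRC3 and 150, 218 and 203 in Blk (1.78-fold, SE 0.22, adjusted p = 0.0267). The WT8 and PRC3 arrays of PARP9 overlapped and those of the other 4 genes did not. PARP14, another ADP-ribosyltransferase, was not called (log2 0.39, adjusted p = 0.421). Of these 5 calls, only that of XAF1 held with each array left out in turn: all of the other 4 ended without WT8 replicate 2, those of SAMD9, SAMD9L and PARP9 also without PRC3 replicate 1, those of TRIM22, SAMD9 and PARP9 without PRC3 replicate 3, and that of SAMD9 without WT8 replicate 3. The log2 changes were 0.85 to 1.39 for TRIM22, 0.77 to 1.45 for SAMD9, 0.95 to 1.19 for SAMD9L and 0.62 to 1.09 for PARP9.

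For 14 of the 22 called members, 19 further probe sets were measured. All 19 had a positive log2 change in WT8 against PRC3, and 5 were called higher. The second probe sets of IFI44 (log2 0.48), PARP9 (0.23) and IFIT3 (0.76) were among those not called. So were the other probe sets of XAF1 (0.29 and 0.38).

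Untreated Blk cells mostly lay between the sublines. Against Blk, PRC3 had 3 members lower and 0 higher, where 0.617% of probe sets were called lower and 0.417% higher, with a median member change of -0.53. The 3 were EIF2AK2 (1.57-fold lower, SE 0.14, adjusted p = 0.0235), HERC5 (at least 3.24-fold lower, adjusted p = 0.00244) and CMPK2 (at least 3.69-fold lower, adjusted p = 0.0456). The call of HERC5 held with each array left out in turn. That of EIF2AK2 ended without PRC3 replicates 1 or 3 or Blk replicates 2 or 3 (log2 -0.81 to -0.54). That of CMPK2 ended without any 1 of the arrays except Blk replicate 1 (-2.55 to -1.51). The calls of CMPK2 and EIF2AK2 also ended with median scaling or the signals as deposited, and all 3 with these groups fitted alone.

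Against Blk, WT8 had 3 members higher and 1 lower, where 1.98% of probe sets were called higher and 2.26% lower, with a median member change of 0.55. OAS2 (2.52-fold, adjusted p = 0.0189), IFITM1 (2.73-fold, adjusted p = 0.0422) and IFI44L (3.55-fold, adjusted p = 0.0358) were higher and MX1 was 2.96-fold lower (adjusted p = 0.0284). Each of these 4 calls ended without Blk replicate 1, and the count was then 0. The calls of the 3 higher genes also ended without WT8 replicates 1 or 2, those of IFITM1 and IFI44L without Blk replicate 3 and that of IFITM1 without Blk replicate 2. The call of MX1 also ended without WT8 replicate 3 or Blk replicates 2 or 3. The log2 changes were 1.02 to 1.85 for OAS2, 1.19 to 1.86 for IFITM1, 1.33 to 2.41 for IFI44L and -1.98 to -1.16 for MX1. All 4 calls also ended with these groups fitted alone, those of OAS2, IFITM1 and IFI44L with median scaling and those of IFITM1, IFI44L and MX1 with no filter. The comparisons of WT8 and of PRC3 with Blk share the Blk arrays.

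No member was called with DMSO against Blk. limma called 0 of the 38, with a smallest adjusted p of 1 and 0 members at an unadjusted p below 0.05. Over all probe sets 0% were called in either direction and 794 had an unadjusted p below 0.05. The median member change was -0.20, and 2 of the 38 members had a positive change.

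Few members were called with the compounds. The comparisons of the 4 compounds all use the same 3 DMSO arrays. With compound 40, 1 member was lower and 0 higher, where 0.346% of probe sets were called lower and 0.34% higher, and the median change was -0.41. With compound 41, 2 members were higher and 1 lower, where 1.17% and 1.37% of probe sets were, and the median was 0.061, or -0.009 with the signals as deposited. With compound 76, 1 was higher and 1 lower, where 0.748% and 0.605% were, and the median was -0.11. With compound 77, 0 members were called, where 0.123% of probe sets were called higher and 0.0486% lower. In that comparison 8 members (21.1%) had an unadjusted p below 0.05, 1 higher and 7 lower, as did 7.63% of all probe sets, and the median was -0.026. With compound 40 it was 9 members (23.7%), 0 higher and 9 lower, and 11.7% of all probe sets. With compound 41 it was 10 members (26.3%), 5 higher and 5 lower, and 13.2% of all probe sets. With compound 76 it was 12 members (31.6%), 4 higher and 8 lower, and 10.4% of all probe sets. The same-numbered arrays of compounds 41 and 76 deviated together with those of DMSO. In a fit blocked on that number over all 8 groups, 6 members were called for each, 4 higher and 2 lower with compound 41 and 3 of each with compound 76. The shares above belong to the fit without the block. The share of all probe sets called with it was not counted, so the larger counts cannot be read as particular to the members. VEGFA averaged 493 ± 206 with compound 40, 275 ± 15.6 with compound 41, 472 ± 204 with compound 76 and 946 ± 146 with compound 77, against 1167 ± 256 with DMSO (SD, n = 3).

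**Figure D3:**
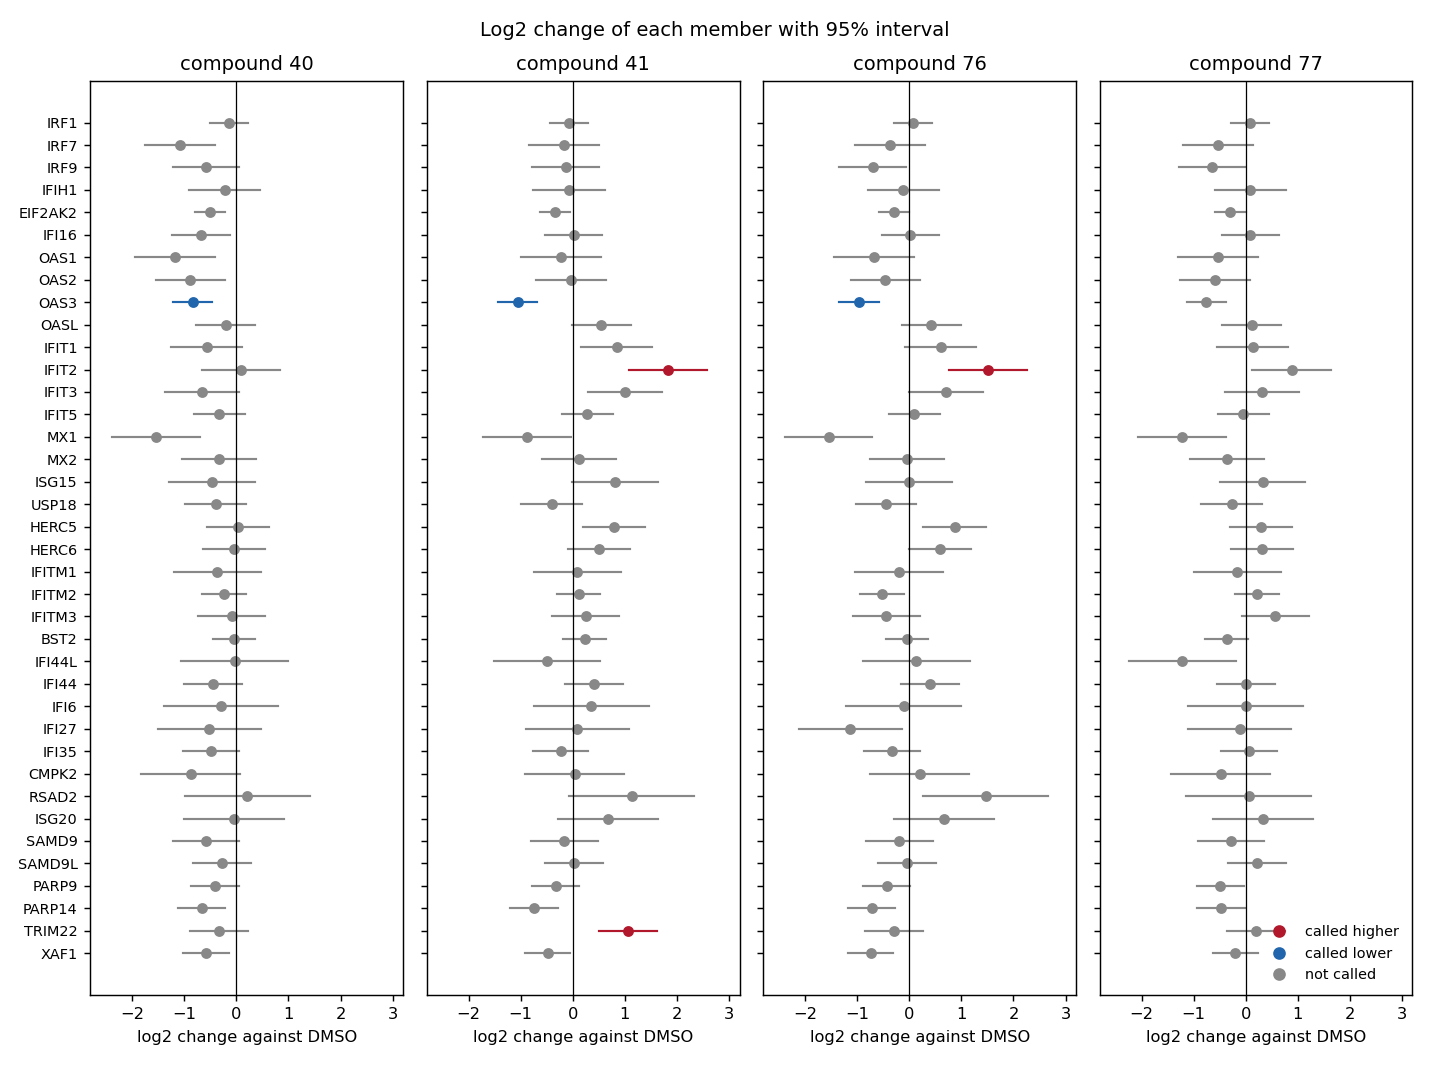
Log2 change of each of the 38 members with compounds 40, 41, 76 and 77 against DMSO, with the 95% interval of the limma fit, called members coloured. OAS3 is called lower with compounds 40, 41 and 76, and IFIT2 higher with compounds 41 and 76.

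OAS3 was lower with 3 of the compounds. Its signal was 237, 218 and 155 with compound 40, 167, 196 and 156 with compound 41, 174, 176 and 202 with compound 76 and 282, 180 and 189 with compound 77, against 379, 391 and 310 with DMSO. All 12 compound arrays lay below the lowest DMSO array, and the share of all probe sets that lay so is not given. The log2 change was -0.84 with compound 40 (SE 0.18, adjusted p = 0.0304), -1.06 with compound 41 (adjusted p = 0.00167), -0.97 with compound 76 (adjusted p = 0.00535) and -0.75 with compound 77 (adjusted p = 0.127). The calls for compounds 41 and 76 held with each array left out in turn, and that for compound 76 ended with these groups fitted alone. That for compound 40 ended without compound 40 replicates 2 or 3 (-0.90 and -0.66), the arrays scaled unlike the rest, or without DMSO replicates 1 or 2 (-0.80 and -0.78). It also ended with median scaling (-0.88, adjusted p = 0.0709), with no filter (-0.84, adjusted p = 0.0704), with these groups fitted alone (-0.84, adjusted p = 0.304) and with the second probe set, which has the larger variance (-0.58, adjusted p = 0.745). The second probe set of OAS3, which averaged 40.5 over the 24 replicated arrays, was not called with any compound, and its change with compound 41 was -0.22 (SE 0.55, adjusted p = 0.944).

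IFIT2 was higher with compounds 41 and 76. Its signal was 91.9, 127 and 105 with compound 40, 237, 391 and 490 with compound 41, 217, 313 and 344 with compound 76 and 126, 251 and 200 with compound 77, against 50.7, 150 and 132.9 with DMSO. Every array of compounds 41 and 76 lay above every DMSO array, without a share over all probe sets to set beside it. The change was 3.56-fold with compound 41 (log2 1.83, SE 0.37, adjusted p = 0.00557) and 2.85-fold with compound 76 (log2 1.51, adjusted p = 0.0360). It was 0.091 on the log2 scale with compound 40 (adjusted p = 0.969) and 0.88 with compound 77 (adjusted p = 0.545). DMSO replicate 1 was the lowest of all 24 replicated arrays for this gene. Without it the change was 1.34 with compound 41 (adjusted p = 0.0533) and 1.02 with compound 76 (adjusted p = 0.266), and neither was called. The call for compound 76 also ended without its replicates 2 or 3 (1.44 and 1.38), with median scaling and with no filter, and both ended with the groups compared fitted alone. The second probe set of IFIT2 was called with compound 41 (log2 1.57, adjusted p = 0.0425) and not with compound 76 (1.09, adjusted p = 0.288).

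TRIM22 was higher with compound 41. Its signal was 244, 142 and 209 with compound 40, 578, 352 and 628 with compound 41, 257, 142 and 211 with compound 76 and 275, 284 and 272 with compound 77, against 273, 208 and 251 with DMSO. The 3 arrays of compound 41 lay above all the others here, again without a share over all probe sets. The change was 2.08-fold with compound 41 (log2 1.06, SE 0.27, adjusted p = 0.0336). That call ended without any 1 of the 6 arrays except compound 41 replicate 2 (log2 changes of 0.90 to 1.32), with no filter, and with these groups fitted alone.

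The other IFIT genes were not called without the block. IFIT3 was 231, 308 and 392 with compound 40, 581, 1273 and 1200 with compound 41, 556, 828 and 1035 with compound 76 and 438, 812 and 593 with compound 77, against 332, 595 and 561 with DMSO. Its log2 change was 1.00 with compound 41 (adjusted p = 0.143 without the block and 1.92e-04 with it) and 0.70 with compound 76 (adjusted p = 0.485, and 0.00892 with the block). The second probe set of IFIT3 changed by 0.621 with compound 41 (adjusted p = 0.564) and 0.624 with compound 76 (adjusted p = 0.667). Neither value used the block, and that probe set's differences between compounds are not given. IFIT1 was 197, 222 and 314 with compound 40, 411, 628 and 984 with compound 41, 512, 460 and 664 with compound 76 and 341, 429 and 401 with compound 77, against 249, 398 and 448 with DMSO. It was not called (log2 0.84 with compound 41, adjusted p = 0.224, and 0.61 with compound 76, adjusted p = 0.566).

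MX1 was 23.0, 26.5 and 41.7 with compound 40, 36.0, 55.3 and 50.2 with compound 41, 24.1, 39.9 and 25.97 with compound 76 and 21.6, 51.8 and 43.8 with compound 77, against 97.5, 69.8 and 91.3 with DMSO. All 12 compound arrays lay below the lowest DMSO array, but no change was called without the block. The log2 change was -1.54 with compound 40 (SE 0.41, adjusted p = 0.0865), -0.88 with compound 41 (adjusted p = 0.346), -1.55 with compound 76 (adjusted p = 0.0589, and 0.0178 with the block) and -1.22 with compound 77 (adjusted p = 0.367). PARP14 also lay below every DMSO array on all 12, and its change with compound 41 was -0.74 (adjusted p = 0.0747, and 0.0443 with the block). For MX1 and PARP14 the share of all probe sets that lay so is not given. HERC5 had a change of 0.80 with compound 41 (adjusted p = 0.178, and 0.0323 with the block) and 0.87 with compound 76 (adjusted p = 0.183, and 0.0270 with the block). The block also called IFI27 lower with compound 76 (log2 -1.13, adjusted p = 0.0296).

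ISG15 showed no call with any compound. It was 424, 633 and 611 with compound 40, 1007, 1362 and 1698 with compound 41, 514, 860 and 964 with compound 76 and 632, 1215 and 1104 with compound 77, against 451, 897 and 1073 with DMSO. IRF1, the factor shared with interferon gamma signalling, was 157, 185 and 158 with compound 40, 141, 201 and 181 with compound 41, 197, 161 and 223 with compound 76 and 173, 203 and 203 with compound 77, against 190, 179 and 179 with DMSO. IRF9 was 95.2, 81.6 and 99.7 with compound 40, 130, 106 and 143 with compound 41, 95.2, 63.6 and 99.9 with compound 76 and 80.7, 84.4 and 98.6 with compound 77, against 130, 151 and 132 with DMSO. Neither IRF gene was called, and every IRF9 array of compounds 40, 76 and 77 lay below every DMSO array. How many of all probe sets did so is not given.

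The compounds were also set against each other, in 6 pairs with p-values adjusted over all probe sets and all 6 pairs together. The labels give no doses or times, so a difference is one between the groups as labelled. In all, 0.337% of these tests were called. With compound 41, IFIT2 was 3.34-fold higher than with compound 40 (log2 1.74, SE 0.37, adjusted p = 0.0332), IFIT3 3.17-fold (log2 1.66, SE 0.34, adjusted p = 0.0291) and TRIM22 2.61-fold (log2 1.38, SE 0.27, adjusted p = 0.0188). With compound 76, TRIM22 was 2.55-fold lower than with compound 41 (log2 -1.35, SE 0.27, adjusted p = 0.0228). In each of these 4 differences the arrays did not overlap, and the share of all probe sets without overlap is not given. All 4 calls ended with no filter, and those of IFIT2 and IFIT3 also with median scaling or the signals as deposited. All 4 rest on single arrays in part. Without compound 41 replicate 3 the log2 differences were 1.511, 1.503 and 1.223 from compound 40 and -1.19 for compound 76 minus compound 41, and none was called. Without compound 40 replicate 2 those from compound 40 were 1.86, 1.67 and 1.16, and none was called. The 2 TRIM22 calls also ended without compound 41 replicate 1 (1.28 and -1.25), and that against compound 76 without compound 76 replicates 2 or 3 (-1.11 and -1.40). Those of IFIT2 and IFIT3 ended without compound 41 replicate 2 (1.67 and 1.46) or compound 40 replicate 1 (1.63 and 1.47), and that of IFIT2 also without compound 40 replicate 3 (1.72) or compound 77 replicate 3 (1.74). Same-numbered arrays of compounds 76 and 41 deviated together, and the block also called IFI27 lower with compound 76 than with compound 41 (log2 -1.22, adjusted p = 0.0402).

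In the other 4 pairs 0 of the 38 members were called by limma. At an unadjusted p below 0.05 there were 11 members (28.9%) for compound 76 against compound 40, where 9.43% of all probe sets passed. There were 8 (21.1%) for compound 77 against compound 40, where 11.2% passed, 4 (10.5%) for compound 77 against compound 41, where 8.46% passed, and 6 (15.8%) for compound 77 against compound 76, where 7.18% passed. The 95% interval of a member's difference reached a median of 0.64 on the log2 scale to each side. That interval is not adjusted for the number of tests, and larger differences also went uncalled. IFITM3 differed by 1.005 between compounds 77 and 76 and was not called by limma (adjusted p = 0.227). The difference in IFIT2 between compounds 76 and 41 was -0.32 (95% interval -1.07 to 0.43). The 4 compounds had OAS3 differences of -0.22 to 0.31 from each other, with intervals of 0.38 to each side.

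The single arrays pTR and pTV can only be set side by side. A log2 difference of at least 1 was seen in 11 of the 38 members, 2 higher and 9 lower in pTR, where 5.76% of all probe sets were higher and 5.95% lower by that much. The median difference was -0.29. HERC5 was 139 in pTR and 21.0 in pTV, and HERC6 81.5 in pTR and 24.9 in pTV. BST2 was at the floor in pTR, against 661 in pTV, at least 33.1-fold lower, whereas its lowest signal on the 24 other arrays was 609. TRIM22 was 21.1 in pTR and 315 in pTV, and XAF1 was at the floor in pTR, against 156 in pTV, at least 7.79-fold lower. The lowest signals of these genes on the 24 other arrays were 126 for TRIM22 and 61.8 for XAF1. OAS3 was 98.3 in pTR and 366 in pTV, EIF2AK2 207 in pTR and 442 in pTV, ISG15 231 in pTR and 511 in pTV, and MX1 34.2 in pTR and 83.6 in pTV. USP18 and IFITM2 completed the 9. IFI27 was at the floor on both arrays, below its lowest signal of 37.0 on the 24 others. In pTR 13 members lay below the range of the 24 other arrays, against 5 in pTV, where 7.38% of kept probe sets did so in pTR and 2.67% in pTV. On each array 1 member lay above it. CCND1 was 107 in pTR and 817 in pTV.

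**Figure D4:**
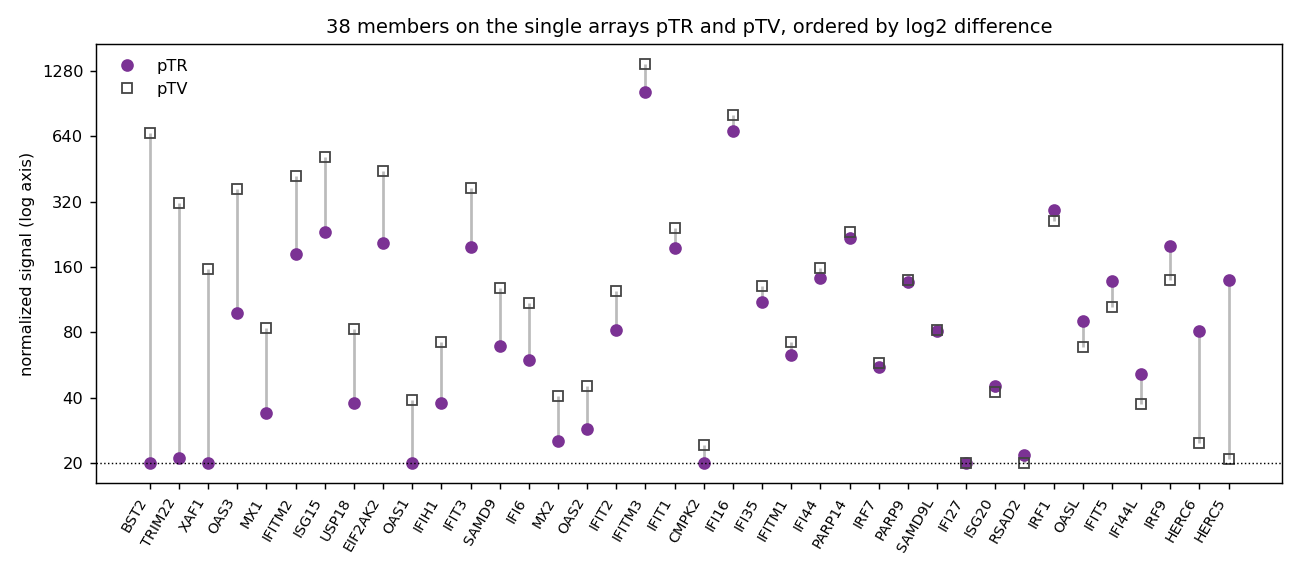
Normalized signal on a log axis of the 38 members on the single arrays pTR (filled) and pTV (open), ordered by log2 difference, with the floor of 20 dotted. BST2, TRIM22 and XAF1 are at or near the floor in pTR and at 156 to 661 in pTV. HERC5 and HERC6 are the 2 members higher in pTR by at least 1.

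Upstream of the set, the interferon genes themselves gave little signal. Of 18 listed ligands, 16 had a single-gene probe set, 13 of these had a median at the floor over the 26 arrays, and the highest signal on any array was 88.1, for IFNL1. IFNB1 was at the floor on all. None of the 6 ligand genes kept was called in WT8 against PRC3. Over the 26 arrays IFNLR1, of the lambda interferon receptor, lay at 20 to 105, with 1 array (pTR) at the floor. The other receptor genes were above the floor on every array, with IFNAR1 at 34.7 to 116, IFNAR2 at 237 to 447, IFNGR1 at 241 to 479 and IFNGR2 at 364 to 659. Of 9 receptor and kinase genes measured, IFNGR1, the ligand-binding chain for interferon gamma, was called higher in WT8 (404 ± 69.0 against 276 ± 34.2 in PRC3, SD, n = 3, adjusted p = 0.0109) and 0 lower. Of all probe sets, 2.35% were called higher and 2.21% lower in that comparison. The intervals of IFNAR1 (log2 -0.25, adjusted p = 0.801) and IFNAR2 (log2 -0.29, adjusted p = 0.198) reached -0.89 and -0.53. IFNGR2 (log2 -0.45, adjusted p = 0.170) and IFNLR1 (log2 -0.68, adjusted p = 0.345) were not called. With the compounds 0 of the 9 were called.

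Of 10 sensors and adaptors outside the set, MAVS, the mitochondrial adaptor of the RNA sensors, was lower in WT8 (92.6 ± 31.2 against 167 ± 36.4 in PRC3, SD, n = 3, adjusted p = 0.0374) and 0 were higher. Of 9 negative regulators, SAMHD1, a nucleotide hydrolase, was higher in WT8 (490 ± 134 against 228 ± 71.5 in PRC3, adjusted p = 0.0111) and 0 were lower. For both lists the share of all probe sets called was 2.35% higher and 2.21% lower.

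Of 36 other interferon-stimulated genes measured, 6 were higher and 2 lower in WT8 than in PRC3, with a median of 0.47. Of all probe sets, 2.35% were called higher and 2.21% lower. Those higher were APOBEC3G (3.43-fold, adjusted p = 6.02e-04), EPSTI1 (3.33-fold), DDX60 (3.25-fold), UBE2L6, which conjugates ISG15 (1.95-fold), NT5C3A (1.78-fold) and PLSCR1 (1.58-fold). APOL1, a trypanolytic serum protein, was 3.29-fold lower (adjusted p = 0.00161) and TNFSF10, the death ligand TRAIL, 1.86-fold lower (adjusted p = 0.00158). Against Blk, 4 of the 36 were higher in WT8, GBP1 (2.58-fold), BATF2 (1.90-fold), NT5C3A (1.57-fold) and PLSCR1 (1.49-fold), and 2 lower, APOL1 (3.80-fold) and TNFSF10 (1.60-fold). In that comparison 1.98% of all probe sets were called higher and 2.26% lower. IFNGR1 was 1.45-fold higher in WT8 than in Blk (adjusted p = 0.0161). In PRC3 against Blk, TYMP, a thymidine phosphorylase, was 2.17-fold lower (adjusted p = 0.0313), where 0.617% of all probe sets were called lower. With compounds 40, 41 and 76, 4 of the 36 were lower each and 0 higher. Of all probe sets, 0.346%, 1.37% and 0.605% were called lower and 0.34%, 1.17% and 0.748% higher. TNFSF10 was 2.04-fold, 3.09-fold and 2.55-fold lower and PLSCR1 1.599-fold, 1.503-fold and 1.522-fold lower with these 3. APOL1 was 2.32-fold lower with compound 41 and 2.60-fold with compound 76. NMI was 1.497-fold lower with compound 40 and 1.52-fold with compound 76, EPSTI1 2.35-fold lower with compound 40 (adjusted p = 0.0465), and TRIM25, a ubiquitin ligase that acts on an RNA sensor, 1.62-fold lower with compound 41 (adjusted p = 0.0301). With compound 77 none was called, and TNFSF10 had a log2 change of -0.65 (adjusted p = 0.148).

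The members did not all follow one another. Over the 24 replicated arrays the correlation of a member with the mean of the others was highest for OAS1 (r = 0.89) and lowest for IRF1 (r = 0.10), IFI27 (r = 0.26) and MX1 (r = 0.32). These points share the group differences and the arrays, and are given as a description. Outside the set, the genes most like the member mean over the 24 arrays were PLAAT4 (r = 0.85), RNF128 and EPSTI1 (both 0.83), DDX60 and CHRDL1 (both 0.81), PSMB9 (0.80), IL18 and GLDC (both 0.79), ZNF440 (0.78) and IGFBP7 (0.77). Over the 18 arrays without WT8 and PRC3 the same correlations were 0.46 to 0.73, with EPSTI1 the highest.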

How the data were processed

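The deposited values are linear signal intensities per probe set, made with MAS5 per the submitters' processing notes. Per the labels, signals were bounded at 20 and 16000 and filtered by variation. The deposited table keeps every probe set, and 646373 of its values lie below 20. Of 26 arrays, 24 share 1 mean, and replicates 2 and 3 of compound 40 do not. Here 62 control probe sets were dropped and the arrays quantile normalized, set to 20 to 16000 and taken to log2. A probe set was kept when 3 or more of the 24 arrays had it at or over that array's median (35013 of 54613). limma 3.58.1 (R 4.3.3, trend, 16 residual degrees of freedom) was fitted over the 24 arrays of 8 groups, without a block. The number of arrays limits the precision. The scripts were tested on simulated data.

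Groups came from the titles. By elimination, 40, 41, 76 and 77 were read as the compounds and Blk as the untreated cells. Gene names came from the platform annotation. The members, gene lists and tests were chosen with earlier results of these data known. Values are given by array for members called in any comparison and for ISG15, MX1, IFIT1, IRF1 and IRF9, pathway genes are named where called or a receptor, and the 10 genes most correlated with the member mean are named. Same-numbered arrays were taken as paired where every correlation of their deviations from the group means exceeded 0.1. This held for WT8 with PRC3 (0.46, 0.11 and 0.35), DMSO with Blk (0.29, 0.21 and 0.15), compound 41 with DMSO (0.21, 0.19 and 0.17), compound 76 with DMSO (0.28, 0.18 and 0.18) and compound 76 with compound 41 (0.19, 0.15 and 0.11). Alternatives covered scaling, floor, filter, probe set, samples in the fit, block and left-out arrays.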

Additional observations from a re-analysis of the deposited data

Results flagged for a closer look

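The compounds gave different log2 changes for 3 members by direct tests. IFIT2, IFIT3 and TRIM22 were higher with compound 41 than with compound 40, by 1.74, 1.66 and 1.38 on the log2 scale. TRIM22 was lower with compound 76 than with compound 41, with a log2 difference of -1.35. In all 4, every array of one group lay beyond every array of the other, and the share of all probe sets that did so is not given. All 4 calls ended with no filter on low values, and all 4 ended without compound 41 replicate 3. Doses and times are not given in the labels, and replicates 2 and 3 of compound 40 were scaled unlike the other arrays. With both of those left out of the fit, 1 of the 4 was called, that of TRIM22 between compounds 76 and 41.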

How the results depend on the processing

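No member's called change turned its sign under any alternative run. Of the 22 members called in WT8 against PRC3, 10 stayed called with each array left out in turn and 1 under all alternatives. In the fits with 1 array left out the counts ran from 10 to 25 for WT8 against PRC3 (22 with all arrays), 1 to 5 for PRC3 against Blk (3), 0 to 6 for WT8 against Blk (4), 0 to 1 for compounds 40 (1) and 77 (0), 1 to 3 for compound 41 (3), 1 to 2 for compound 76 (2) and 0 to 4 for the compound pairs (4). Median scaling gave 11 for WT8 against PRC3, 1 for PRC3 against Blk, 1 for WT8 against Blk, 0 and 1 for compounds 40 and 76 and 2 for the pairs. Signals as deposited gave 1 for PRC3 against Blk and 2 for the pairs. No filter gave 13 and 1 for WT8 against PRC3 and Blk, 0 and 1 for compounds 40 and 76 and 0 for the pairs, and the filter of the labels gave 7 for WT8 against Blk, over 28 members. The groups compared fitted alone gave 1 for WT8 against PRC3 and 0 for PRC3 against Blk, WT8 against Blk, compound 40 and compound 76. The probe set with the largest variance gave 0 and 1 for compounds 40 and 76. Without compound 40 replicates 2 and 3 the counts were 0 for compound 40 and 1 for the pairs. Blocking on the replicate number gave 9 for PRC3 against Blk, 11 for WT8 against Blk, 4, 6, 6 and 1 for compounds 40, 41, 76 and 77 and 12 for the pairs. The block fits each number's effect over all 8 groups at once, and no share of all probe sets was counted with it. In PRC3 and WT8 against Blk, compounds 40 and 77, and 5 of the 6 pairs, the arrays share only a number. The block kept DMSO at 0. Fewer arrays or probe sets change what a fit can call, and the cause of the other shifts was not tested. Array medians of 20.2 to 27.4 lie near the floor, so low members are measured poorly.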
